A study of Mus musculus with 6 samples.

Results

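The carnitine shuttle and the mitochondrial enzymes of fatty acid beta-oxidation were examined in brown adipose tissue (BAT) of mice with and without Letmd1, which encodes a protein of the mitochondrial matrix. The group holds the 10 genes Cpt1a, Cpt1b, Cpt2, Acadvl, Acadl, Acadm, Hadha, Hadhb, Acaa2 and Etfdh, which were taken by gene symbol from the 23282 rows of the deposited read counts. All 10 were found on 1 row each and passed the filter on low counts. RNA came from BAT of male C57BL/6N mice at 5 weeks of age, with 3 wild-type mice and 3 Letmd1 KO mice. The Letmd1 KO mice carried a knockout-first allele from a single ES cell clone, in which a cassette with lacZ and a neomycin resistance gene sits in an intron of Letmd1 in every tissue, and no treatment was given to either group by the labels. Libraries were made by the QuantSeq method, in which a read comes from the 3′ end of an mRNA, and levels were not divided by transcript length. Libraries held between 6669577 and 14574273 counts and were scaled with edgeR's TMM method to CPM, the counts of a gene set against the scaled library total, with factors between 0.852 and 0.886 in wild-type mice and between 1.13 and 1.17 in Letmd1 KO mice. Letmd1 itself had 5658, 6490 and 5266 counts across wild-type mice and 0, 0 and 1 across Letmd1 KO mice, so that the counts of all 6 mice matched their labels. Nothing in the labels says whether mice shared a litter or a preparation day, and p-values measure the spread between these mice. The brown adipocyte marker Ucp1, the uncoupling protein of BAT, was present in every library, at 5841 to 6874 CPM in wild-type mice and 255 to 476 CPM in Letmd1 KO mice.

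Long-chain fatty acids enter mitochondria as carnitine esters. CPT1 on the outer membrane forms the ester, the carrier SLC25A20 moves it across the inner membrane, and CPT2 transfers the chain back to coenzyme A in the matrix. There, repeated rounds of dehydrogenation, hydration, a further dehydrogenation and thiolysis shorten the chain to acetyl-CoA, and the electrons of the first step pass through the electron transfer flavoprotein and its dehydrogenase to ubiquinone. In brown adipocytes this pathway supplies much of the fuel for heat production, and CPT1B is the main CPT1 isoform of brown fat and muscle.

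Transcripts of 9 of the 10 genes were lower in Letmd1 KO BAT and 1, Cpt1a, was higher, all past the threshold of 0.05 for the Benjamini-Hochberg adjusted p over all genes tested (edgeR quasi-likelihood test). By the same rule 22.3% of the 12995 genes tested passed as lower and 23.7% as higher. In the 9 lower genes every Letmd1 KO mouse lay below every wild-type mouse, which held for 27.2% of all genes tested, and the opposite order of Cpt1a held for 30.1%. The median log2 fold change of the 10 genes was -1.50, beside 0.033 over all genes tested. The lower genes fell by 1.24 (Acaa2) to 1.81 (Acadvl) on the log2 scale and kept between 28.5% and 42.3% of their wild-type CPM. All 10 changes were also at least 2-fold, which held for 8.84% of all genes as lower and 14.6% as higher. Summed over the 10 genes, wild-type mice held 13910, 13834 and 14860 CPM and Letmd1 KO mice 4779, 4652 and 5601 CPM. The groups did not overlap in this sum. In whole tissue, fewer brown adipocytes and less of these RNAs per cell cannot be told apart.

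**Figure D1:**
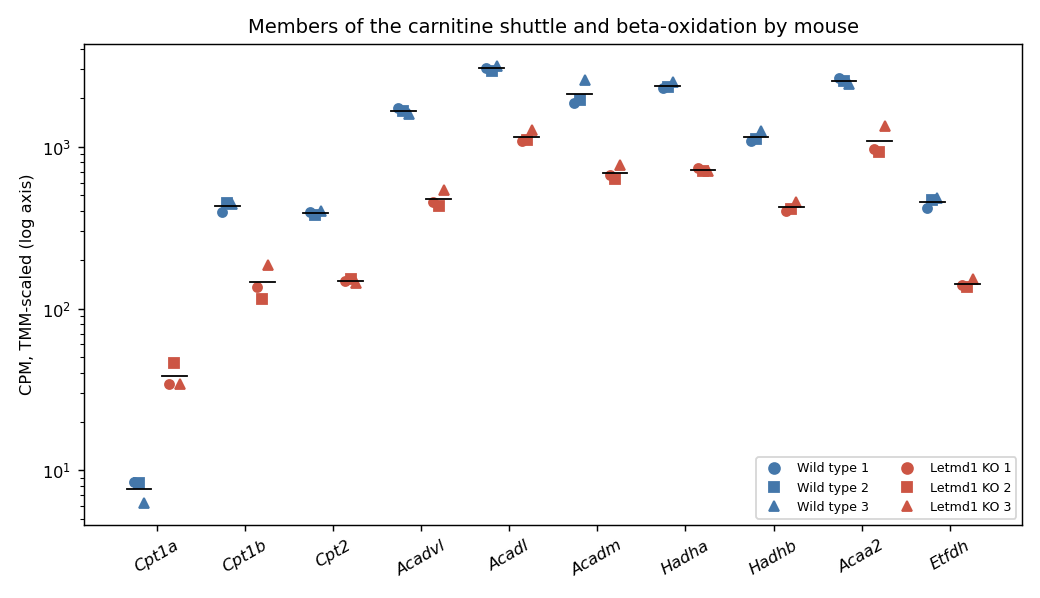
Each point is the TMM-scaled level (CPM, log axis) of 1 mouse for each of the 10 genes, with wild-type mice in blue, Letmd1 KO mice in red, the marker shape giving the replicate number and the black line the mean of 3 mice. Cpt1a was the lowest of the 10 genes in both genotypes and the only one whose Letmd1 KO mice lay above the wild-type mice.

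The promoter windows of 3 of these genes are shown to set Cpt1a, the gene that rose, beside Acadvl, the gene that fell most under TMM scaling, and Hadha, whose start lies next to that of Hadhb. Windows run from 250 bases before to 50 bases after the start site in RefSeq. The build was GRCm38.p6, the patch release of the one that the labels call mm10. Windows of 8 of the 10 genes were searched, without Cpt1b and Acaa2. Capitals mark AGGTCA on either strand, the half-site of nuclear receptors such as the PPAR and ERR families that are known to act on genes of fatty acid oxidation.
Cpt1a, plus strand, chr19:3323051-3323350: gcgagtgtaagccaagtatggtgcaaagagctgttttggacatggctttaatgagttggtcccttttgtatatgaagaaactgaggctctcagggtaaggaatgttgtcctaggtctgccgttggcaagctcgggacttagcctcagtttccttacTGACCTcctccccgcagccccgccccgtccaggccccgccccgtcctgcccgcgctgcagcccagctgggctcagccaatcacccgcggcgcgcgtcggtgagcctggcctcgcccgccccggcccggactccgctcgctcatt
Acadvl, minus strand, chr11:70015379-70015678: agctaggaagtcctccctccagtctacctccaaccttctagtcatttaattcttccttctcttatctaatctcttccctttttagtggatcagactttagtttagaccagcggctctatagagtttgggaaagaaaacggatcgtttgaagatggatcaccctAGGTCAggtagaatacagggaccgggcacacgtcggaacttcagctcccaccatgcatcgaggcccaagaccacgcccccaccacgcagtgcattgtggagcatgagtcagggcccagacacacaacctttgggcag
Hadha, minus strand, chr5:30154931-30155230: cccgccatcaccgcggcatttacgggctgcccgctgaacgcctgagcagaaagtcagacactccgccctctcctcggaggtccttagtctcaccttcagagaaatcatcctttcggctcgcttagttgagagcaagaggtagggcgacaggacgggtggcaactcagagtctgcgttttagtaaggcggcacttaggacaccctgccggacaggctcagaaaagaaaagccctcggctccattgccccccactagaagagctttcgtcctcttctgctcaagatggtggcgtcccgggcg
AGGTCA was found in 3 of the 8 windows, in Cpt1a from position -94, in Acadvl from -87 and at the far end of the window in Acadm, and in 16.3% of all 32851 windows of the same length. The longer motifs DR1, a direct repeat of the half-site with 1 base between the copies, and TNAAGGTCA, whose last 6 letters are the half-site, were found on neither strand of the 8 windows, and in 0.0396% and 1.28% of all windows. The windows of Hadha and Hadhb share 228 bases. A match of letters is a description and no measure of binding, and it did not divide the gene that rose from those that fell, as Cpt1a and Acadvl both held 1.

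Cpt1a encodes the CPT1 isoform known from liver and most other tissues. Its position is chromosome 19, 3322334 to 3385733, plus strand (GRCm38, GENCODE). It had 79, 79 and 48 counts across wild-type mice, or 8.52, 8.38 and 6.26 CPM, and 311, 347 and 580 counts across Letmd1 KO mice, or 34.2, 45.9 and 34.1 CPM. All Letmd1 KO mice were high, replicate 2 most, and the genotypes did not overlap. The mean rose 4.93-fold, from 7.72 ± 1.26 to 38.1 ± 6.80 CPM (SD, n = 3 each), with a log2 fold change of 2.29 ± 0.19 (SE, edgeR quasi-likelihood adjusted p = 2.38e-05). Of all genes tested, 94.7% had a lower log2 fold change.

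Macrophage and fibroblast markers moved in the same direction as Cpt1a. All 13 macrophage markers tested were higher in Letmd1 KO BAT (12 with DESeq2, where the remaining marker had no adjusted p), beside 23.7% of all genes. Their summed level was 187 to 263 CPM in wild-type mice and 1527 to 3651 CPM in Letmd1 KO mice, and none of these markers was at 0 in any mouse. Of 9 markers of adipose progenitors and fibroblasts, 8 were higher (7 with the muscle covariate, 9 with library size alone), with sums of 1475 to 2011 and 3976 to 6728 CPM. Of 8 endothelial markers 3 were lower and none higher, beside 22.3% and 23.7% of all genes. Only 1 was lower without wild-type replicate 1 or Letmd1 KO replicate 2 and 0 with the muscle covariate, and with library size alone 1 was lower and 1 higher. None of 5 erythroid markers passed with all mice, and 1 was lower without wild-type replicate 3. Letmd1 KO replicate 2, the mouse with the highest Cpt1a, also had the highest sum of both lists, while replicates 1 and 3 had near-equal Cpt1a. The part of these cells in the level of Cpt1a was not tested. Without Letmd1 KO replicate 2 the log2 fold change of Cpt1a was 2.14 (edgeR quasi-likelihood adjusted p = 3.99e-05).

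Cpt1b encodes the muscle and brown fat isoform of CPT1 and lies on the minus strand of chromosome 15 from 89416405 to 89425863. It had 394, 447 and 442 CPM across wild-type mice and 135, 114 and 187 CPM across Letmd1 KO mice. Every Letmd1 KO mouse was below the wild-type mice, replicate 3 being the highest of them. The mean fell from 428 ± 29.2 to 145 ± 37.3 CPM (SD, n = 3 each), with a log2 fold change of -1.56 ± 0.17 (SE, edgeR quasi-likelihood adjusted p = 0.000118). Cpt1b is also a gene of skeletal muscle, and muscle markers differed between mice. Their sum over 15 markers was between 88.6 and 530 CPM in wild-type mice and between 378 and 1386 CPM in Letmd1 KO mice. Of the 15, 3 passed the test as higher and none as lower, beside 23.7% and 22.3% of all genes. Ckm, Tnnt3, Myh2, Myh4 and Pvalb had no counts in wild-type replicates 1 and 3. The count of 3 rested on single mice, being 13 without wild-type replicate 2, 1 without Letmd1 KO replicate 1, 0 without wild-type replicate 1, wild-type replicate 3 or Letmd1 KO replicate 3, and 10 under quantile normalization. The highest sum was in Letmd1 KO replicate 3, the Letmd1 KO mouse with the most Cpt1b. With the muscle level of each mouse as a covariate the log2 fold change of Cpt1b was -1.79 (edgeR quasi-likelihood adjusted p = 0.00124), and without Letmd1 KO replicate 3 it was -1.78. That muscle level, a mean log2 CPM, was -0.35, 4.30 and -0.43 across wild-type mice and 4.31, 3.92 and 5.87 across Letmd1 KO mice. It thus largely followed genotype, and only wild-type replicate 2 of its group reached the Letmd1 KO range, which limits this adjustment.

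The row of Cpt1b does not stand alone in the files. A read-through transcript of Chkb, the choline kinase gene upstream, and Cpt1b covers 81.4% of the exonic bases of Cpt1b on the same strand, and the last 500 bases of both transcripts are the same. Its own row, ChkbCpt1b, exceeded that of Cpt1b by 165 to 567 counts in every mouse and had a log2 fold change of -1.51, beside -1.14 for Chkb. Reads of the shared 3′ end cannot be divided between both rows, so the level of Cpt1b stands for either transcript.

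The makeup of the CPT1 reads differed between the genotypes. Cpt1a made up 2.11%, 1.84% and 1.39% of the reads of Cpt1a and Cpt1b together across wild-type mice and 20.1%, 28.7% and 15.5% across Letmd1 KO mice. The 95% Wilson intervals, which cover counting error only, spanned 1.05% to 2.63% over the wild-type mice and 14.3% to 31.3% over the Letmd1 KO mice. The ratio of Cpt1a to Cpt1b, which does not depend on library scaling, was 3.88 higher on the log2 scale in Letmd1 KO mice (SE 0.38). Those groups did not overlap, and the two-sided exact permutation test gave p = 0.1, the smallest that 3 mice against 3 allow. The sum of both genes nevertheless fell, from 436 ± 28.7 to 183 ± 32.7 CPM (SD, n = 3 each, exact permutation p = 0.1), since Cpt1b was the more abundant isoform in all 6 mice.

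**Figure D2:**
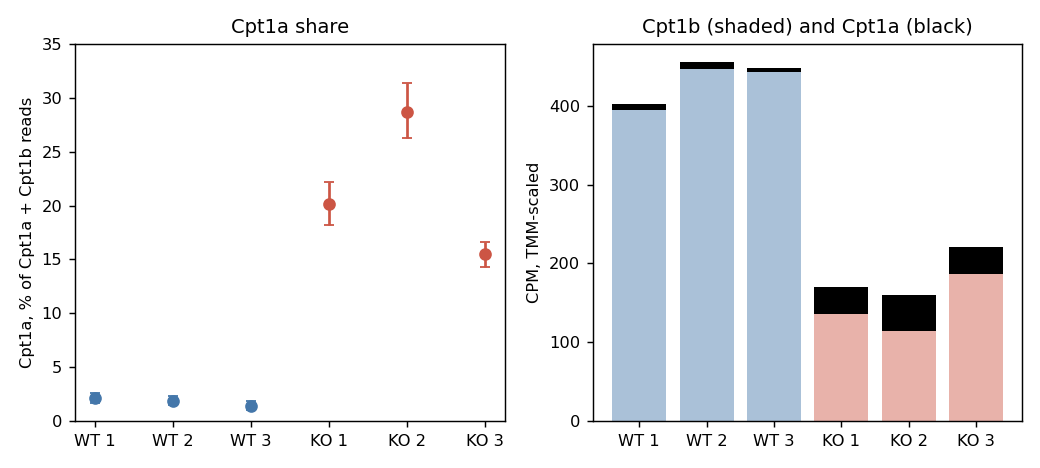
On the left, the share of Cpt1a in the reads of Cpt1a and Cpt1b (%) in each mouse with its 95% Wilson interval, and on the right the level of both genes (CPM, stacked, Cpt1a in black), with wild-type mice in blue and Letmd1 KO mice in red. The share was between 1.39% and 2.11% in wild-type mice and between 15.5% and 28.7% in Letmd1 KO mice, while the stacked total was lower in every Letmd1 KO mouse.

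Cpt2 encodes the inner membrane acyltransferase that hands the fatty acid back to coenzyme A and lies on chromosome 4 from 107903981 to 107923610. It had 393, 376 and 399 CPM across wild-type mice and 147, 152 and 145 CPM across Letmd1 KO mice. The mice of a genotype lay close together and the groups were far apart, with a log2 fold change of -1.40 ± 0.10 (SE, edgeR quasi-likelihood adjusted p = 1.15e-05). The ratio of Cpt2 to Cpt1b overlapped between the genotypes and was 0.19 higher on the log2 scale in Letmd1 KO mice (SE 0.24, exact permutation p = 0.5), ranging from 0.012 without Letmd1 KO replicate 2 to 0.40 without Letmd1 KO replicate 3.

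The acyl-CoA dehydrogenases catalyse the first step of each round and divide the chain lengths among them. Acadvl, the very long-chain enzyme of the inner membrane, lies on chromosome 11 from 70010183 to 70015411. It had 1739, 1672 and 1595 CPM across wild-type mice and 456, 432 and 539 CPM across Letmd1 KO mice. Under TMM scaling it fell most of the 10 genes, from 1668 ± 71.8 to 476 ± 56.5 CPM (SD, n = 3 each), to 28.5% of the wild-type level (log2 fold change -1.81, SE 0.13, edgeR quasi-likelihood adjusted p = 1.36e-05). Only 2.39% of all genes tested had a more negative log2 fold change. Under quantile normalization Etfdh (-1.39) and Cpt1b (-1.28) fell more than Acadvl (-1.19). The 3′ part of Acadvl overlaps Dvl2, a gene of Wnt signalling on the opposite strand, over 42.9% of its exonic bases, and whether reads were counted by strand is not given in the sources used here. Dvl2 held 74 to 298 counts beside 3264 to 16128 for Acadvl and was higher in Letmd1 KO BAT, with a log2 fold change of 0.57.

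Acadl, the long-chain enzyme, was the most abundant of the 10 genes and lies on chromosome 1 from 66830839 to 66863277. Its level was 3079, 2936 and 3159 CPM across wild-type mice and 1089, 1097 and 1274 CPM across Letmd1 KO mice. The log2 fold change was -1.41 (SE 0.13), so that the most abundant transcript of the set kept 37.7% of its level. Acadm, the medium-chain enzyme on chromosome 3 from 153922357 to 153944632, had 1850, 1930 and 2568 CPM across wild-type mice and 668, 634 and 769 CPM across Letmd1 KO mice. Wild-type replicate 3 was high, and even the lowest wild-type mouse was above all Letmd1 KO mice (log2 fold change -1.62, SE 0.16). Adjusted p-values from edgeR's quasi-likelihood test were 4.43e-05 for Acadl and 6.49e-05 for Acadm. The ratio of Acadl to Acadvl was 1.77, 1.76 and 1.98 across wild-type mice and 2.39, 2.54 and 2.36 across Letmd1 KO mice, without overlap, a difference of 0.41 on the log2 scale (SE 0.064, exact permutation p = 0.1). The ratio of Acadm to Acadvl overlapped, with a difference of 0.21 (SE 0.18, exact permutation p = 0.4) that ranged from 0.093 without wild-type replicate 1 to 0.39 without wild-type replicate 3 (exact permutation p = 0.1).

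Hadha and Hadhb encode the alpha and beta subunits of the mitochondrial trifunctional protein, which carries out the last 3 steps on long chains at the inner membrane. They lie head to head on chromosome 5, Hadha from 30118304 to 30155162 on the minus strand and Hadhb from 30155248 to 30184593 on the plus strand, with 85 bases between the annotated genes. Hadha had 2292, 2343 and 2504 CPM across wild-type mice and 738, 710 and 708 CPM across Letmd1 KO mice. Hadhb had 1088, 1112 and 1247 CPM across wild-type mice and 399, 412 and 453 CPM across Letmd1 KO mice. Both subunits fell in every Letmd1 KO mouse, with a log2 fold change of -1.73 ± 0.12 for Hadha (SE, edgeR quasi-likelihood adjusted p = 1.14e-05) and of -1.45 ± 0.12 for Hadhb (SE, edgeR quasi-likelihood adjusted p = 2.33e-05). Reads of Hadhb per read of Hadha were 0.475, 0.475 and 0.498 across wild-type mice and 0.540, 0.580 and 0.640 across Letmd1 KO mice, a difference of 0.28 on the log2 scale without overlap (SE 0.075, exact permutation p = 0.1). The 3′ end of Hadhb matches the annotated sequences Gm13910 and Gm9108 at 99.1% and 96.8% identity over 346 bases, and the authors counted reads with several alignments, so the level of Hadhb may hold reads of these copies.

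Acaa2, the thiolase that cleaves medium and short chains in the matrix, changed least of the 9 lower genes under TMM scaling with all mice, whereas Cpt2 changed less with the muscle covariate (-1.33 against -1.38) and without Letmd1 KO replicate 3 (-1.38 against -1.43). It had 2648, 2542 and 2457 CPM across wild-type mice and 973, 921 and 1341 CPM across Letmd1 KO mice. Letmd1 KO replicate 3 was high within its group and still below all wild-type mice (log2 fold change -1.24, SE 0.17, edgeR quasi-likelihood adjusted p = 0.000322). Under quantile normalization its log2 fold change was -0.45 (adjusted p = 0.0401 from limma), the value closest to the threshold among the 10 genes and all alternatives. The ratio of Acaa2 to Hadhb overlapped between the genotypes (difference 0.19 on the log2 scale, SE 0.15, exact permutation p = 0.4), ranging from 0.073 without Letmd1 KO replicate 3 to 0.28 without Letmd1 KO replicate 2.

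Etfdh encodes the iron-sulfur flavoprotein that passes electrons from the electron transfer flavoprotein to ubiquinone, and lies on chromosome 3 from 79603788 to 79629500. It had 418, 467 and 482 CPM across wild-type mice and 140, 135 and 151 CPM across Letmd1 KO mice. The groups lay far apart, and the fall of 1.68 ± 0.11 on the log2 scale (SE, edgeR quasi-likelihood adjusted p = 8.81e-06) had the smallest adjusted p of the 10 genes. Its electron donor, the heterodimer of Etfa and Etfb, fell as well, with log2 fold changes of -1.06 and -1.04, but under quantile normalization Etfb was at -0.24 and did not pass (adjusted p = 0.211 from limma). Etfdh had 0.763, 0.770 and 0.733 reads per read of Etfa across wild-type mice and 0.560, 0.484 and 0.448 across Letmd1 KO mice. The ratio was lower in every Letmd1 KO mouse, by 0.61 on the log2 scale (SE 0.096, exact permutation p = 0.1).

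The 10 genes spanned a wide range of levels. In wild-type BAT the order by mean CPM was Acadl, Acaa2, Hadha, Acadm, Acadvl, Hadhb, Etfdh, Cpt1b, Cpt2 and Cpt1a. Mice overlapped between Acaa2 and Hadha, Hadha and Acadm, Etfdh and Cpt1b, and Cpt1b and Cpt2, and the remaining neighbours in this order did not overlap. In Letmd1 KO BAT the order was Acadl, Acaa2, Hadha, Acadm, Acadvl, Hadhb, Cpt2, Cpt1b, Etfdh and Cpt1a. There, Acadl and Acaa2, Hadha and Acadm, and Acadvl and Hadhb overlapped, as did Cpt2, Cpt1b and Etfdh with each other. Wild-type CPM put Acadl at rank 34 and Cpt1a at rank 8920 of the 12995 genes tested, and Letmd1 KO CPM put them at ranks 68 and 4270.

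In all, 8 ratios between genes of the same or of neighbouring steps were compared. For 5 of them the genotypes did not overlap, and each of these had p = 0.1 in the two-sided exact permutation test, or 0.16 after Benjamini-Hochberg adjustment over the 8 ratios, so none passed the threshold in this design. The share of other gene pairs whose ratios do not overlap was not computed. Of single genes tested, 27.2% were lower in every Letmd1 KO mouse than in every wild-type mouse, and 30.1% were higher. Besides the ratios above, the carrier Slc25a20 had 2.20, 2.31 and 2.20 reads per read of Cpt2 across wild-type mice and 1.70, 1.54 and 1.70 across Letmd1 KO mice, lower by 0.45 on the log2 scale (SE 0.053).

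**Figure D3:**
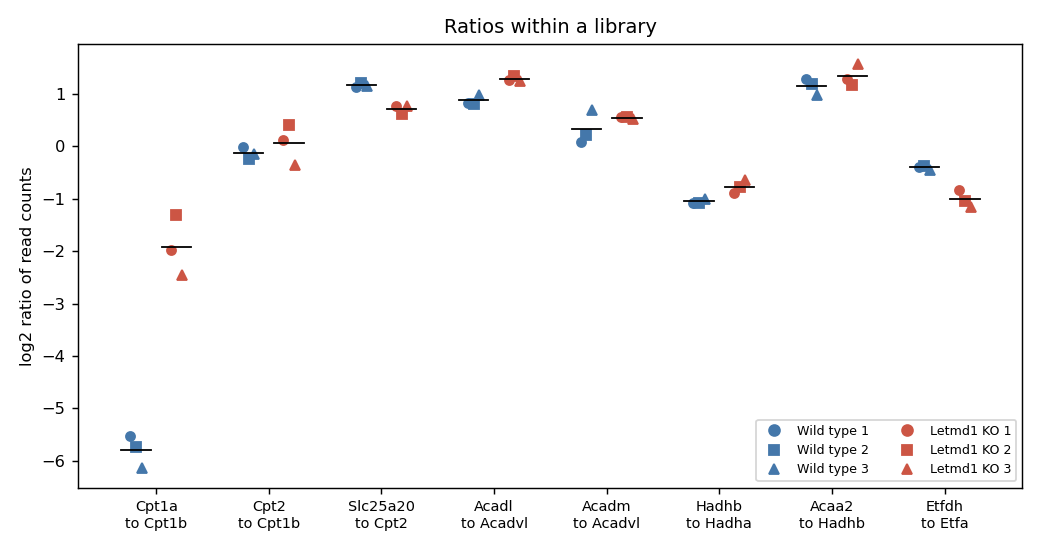
Log2 ratios of the read counts of 2 genes in the same library for 8 pairs of genes of the same or of neighbouring steps, with 1 point a mouse, wild-type mice in blue, Letmd1 KO mice in red and the black line the mean of 3 mice. The Cpt1a to Cpt1b ratio differed most, by 3.88, and the others by 0.19 to 0.61 in size.

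The rest of the pathway moved with the 9 lower genes. Of 22 further genes of carnitine transport and beta-oxidation, all of which passed the filter, 21 were lower in Letmd1 KO BAT and none was higher, where 22.3% of all genes were lower, and their median log2 fold change was -1.09. With library size alone 18 were lower and 1, Cpt1c, was higher, with the muscle covariate 19 were lower, and under quantile normalization 20 were. Slc22a5 and Slc25a20, both of carnitine transport, fell most of the 22 under TMM scaling. Acad10 (-1.60) fell more than Slc25a20 (-1.44) under quantile normalization. Slc22a5, the plasma membrane carnitine transporter, had 37.1, 29.5 and 23.1 CPM across wild-type mice and 7.14, 8.21 and 6.06 CPM across Letmd1 KO mice, with a log2 fold change of -2.08 ± 0.21 (SE, edgeR quasi-likelihood adjusted p = 7.29e-05). Slc25a20, the carnitine-acylcarnitine carrier, fell from 871 ± 8.06 to 243 ± 8.45 CPM (SD, n = 3 each) and Crat, the carnitine acetyltransferase, from 321 ± 13.6 to 118 ± 13.3 CPM (SD, n = 3 each). The transcript of the brain isoform Cpt1c was near the limit of detection, at 0.72 ± 0.48 CPM in wild-type and 1.56 ± 0.25 CPM in Letmd1 KO BAT (SD, n = 3 each), and did not pass the test (edgeR quasi-likelihood adjusted p = 0.145).

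All 9 further acyl-CoA dehydrogenases, among them enzymes of branched-chain amino acid breakdown such as Ivd, were lower under TMM scaling, from Acad11 with a log2 fold change of -1.60 to Acad9, which is also an assembly factor of complex I, with -0.66. With library size alone 6 of the 9 passed, without Acad9, Acad12 and Gcdh, and with the muscle covariate 7 passed, without Acad9 and Acad12. Acads, the short-chain enzyme, fell from 534 ± 33.3 to 260 ± 39.4 CPM (SD, n = 3 each). All 4 genes of the short-chain steps were lower as well. Hadh, the short-chain 3-hydroxyacyl-CoA dehydrogenase, fell by 1.76, Acat1, the acetoacetyl-CoA thiolase, by 1.58, Hsd17b10 by 1.37 and the hydratase Echs1 by 1.19 on the log2 scale. The 3 genes that prepare unsaturated chains had log2 fold changes of -1.38 for the isomerase Eci1, -0.89 for Eci2 and -0.82 for the reductase Decr1.

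**Figure D4:**
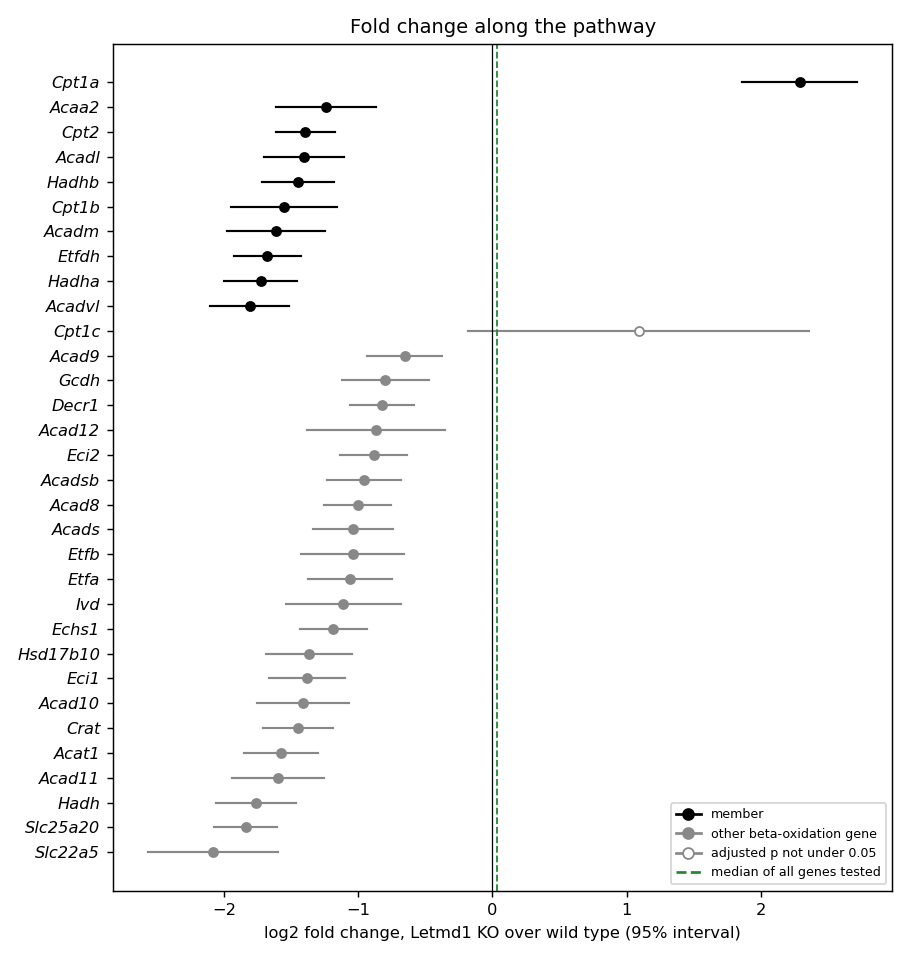
Log2 fold change of Letmd1 KO over wild-type BAT with its 95% interval for the 10 genes (black) and 22 further genes of carnitine transport and beta-oxidation (grey), with open points for an adjusted p not under 0.05 and a dashed line at the median of all genes tested. Cpt1a lies at 2.29 and Cpt1c, which did not pass, at 1.09, while the remaining 30 genes lie between -2.08 and -0.66.

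The enzymes that set malonyl-CoA, the inhibitor of CPT1, were lower too. Acaca and Acacb, the acetyl-CoA carboxylases that make it, had log2 fold changes of -3.11 and -2.87, and Mlycd, the decarboxylase that removes it, had -1.03. Acacb had 670, 729 and 772 CPM across wild-type mice and 96.6, 127 and 74.1 CPM across Letmd1 KO mice. Acaca had 1941, 2110 and 2293 CPM and 150, 456 and 129 CPM, with Letmd1 KO replicate 2 the highest of its group. These falls in the carboxylases were larger than those of any of the 10 genes.

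Among 16 transcription factors and coactivators known to act on genes of this pathway, 15 were tested. Of these, 5 were lower, 1 was higher and 9 did not pass, beside 22.3% lower and 23.7% higher over all genes tested. Prdm16, a regulator of brown fat identity, had a log2 fold change of -1.36, the coactivator Ppargc1b of -1.08, Lpin1 of -0.61, the receptor Esrra of -0.43 and Rxrb of -0.33, while Nrf1 had 0.81. Ppara, the main nuclear receptor of fatty acid oxidation, had 699, 644 and 700 CPM across wild-type mice and 538, 321 and 604 CPM across Letmd1 KO mice. Its log2 fold change was -0.48 and did not pass (edgeR quasi-likelihood adjusted p = 0.0844). Ppargc1a, the cold-induced coactivator, overlapped between the genotypes, with 349, 227 and 207 CPM and 221, 132 and 191 CPM (log2 fold change -0.52, edgeR quasi-likelihood adjusted p = 0.0906). With scaling by library size alone, 2 of the 15 were lower and 4 higher, beside 10.5% and 45.4% of all genes, and their median turned from -0.43 to -0.015. Under quantile normalization 2 were lower and 1 was higher, beside 23.7% and 20.9% of all genes.

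Of 11 genes of peroxisomal beta-oxidation, 7 were lower (4 with library size alone, 5 with the muscle covariate) and none higher, beside 22.3% and 23.7% of all genes. Their median log2 fold change was -0.77, from Abcd3, a peroxisomal acyl-CoA transporter, at -1.49 to Abcd2, which did not pass, at -0.18. Of 18 genes of the citrate cycle, 16 were lower and 1 higher, beside the same shares of all genes, with a median of -1.09. The higher gene was the NADP-linked isocitrate dehydrogenase Idh2 at 0.62, which did not pass with the muscle covariate. Under quantile normalization 11 of the 18 were lower and 2 higher, with a median of -0.59. The mean log2 CPM of the 9 lower genes minus that of the citrate cycle genes was 0.12, 0.096 and 0.16 across wild-type mice and -0.37, -0.28 and -0.47 across Letmd1 KO mice. The groups did not overlap, but the 9 genes were taken because they fell in these same mice. With Cpt1a included, the mean of all 10 was 9.490, 9.510 and 9.546 across wild-type mice and 8.292, 8.286 and 8.473 across Letmd1 KO mice. That of the citrate cycle genes was 10.078, 10.126 and 10.151, and 9.018, 8.876 and 9.314. The genotypes then overlapped in the difference between both means. No difference was tested because the genes were chosen with earlier results known.

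The size of each fall depended on what the counts were set against. With library size as the only scaling, the median over all genes tested rose from 0.033 to 0.45, and turned 2896 lower and 3082 higher genes into 1368 and 5899. On that scale 9 of the 10 genes were lower, beside 10.5% of all genes, and Cpt1a was higher, beside 45.4%, with a median over the 10 genes of -1.08. Under quantile normalization with limma, the normalization that the study names, 9 were lower, beside 23.7% of all genes, and Cpt1a was higher, beside 20.9%, with a median of -0.96. The log2 fold change was then -0.57 for Acadl, -0.83 for Acadm, -0.45 for Acaa2, -0.995 for Hadha and -1.19 for Acadvl, each more than 1.5 times smaller in fold than under TMM scaling. With the muscle level as a covariate 9 were lower, beside 13.6% of all genes, and 1 was higher, beside 13.9%. Both counts were the same with RLE size factors (22.8% and 23.3% of all genes), with DESeq2 (18.9% and 19.6%), without the filter (16.4% and 17.9%) and with a filter at a mean of 50 counts (23.7% and 25%).

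The 9 lower genes were also set against markers of all adipocytes. Of the 6 markers Adipoq, Plin1, Fabp4, Cidec, Lipe and Cfd, 5 were lower in Letmd1 KO BAT, beside 22.3% of all genes. The median log2 fold change over the 6 was -1.20. With the muscle covariate 3 were lower, under quantile normalization 3 were lower and 1 higher (median -0.63), and without Letmd1 KO replicate 2 all 6 were lower. Relative to the mean of these markers in the same mouse, the median change of the 10 genes was -0.25 on the log2 scale and that of Acaa2 was 0.0028. The genotypes overlapped for 9 of the 10 genes, and the share of all genes that overlap on this scale was not computed. The mean of the 9 lower genes relative to the markers was -1.25, -0.97 and -0.99 across wild-type mice and -1.15, -2.15 and -0.77 across Letmd1 KO mice. Letmd1 KO replicate 2 was low and the other two lay within or above the wild-type range. This mouse had 4882 CPM of Cfd, the secreted protease adipsin, beside 951 and 732 CPM in the other Letmd1 KO mice. Cpt1a did not overlap on this scale and was 3.54 higher. All 8 brown adipocyte markers were lower, beside 22.3% of all genes, with a median of -2.26. The part of adipocyte number in the fall of the 9 genes was not tested.

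**Figure D5:**
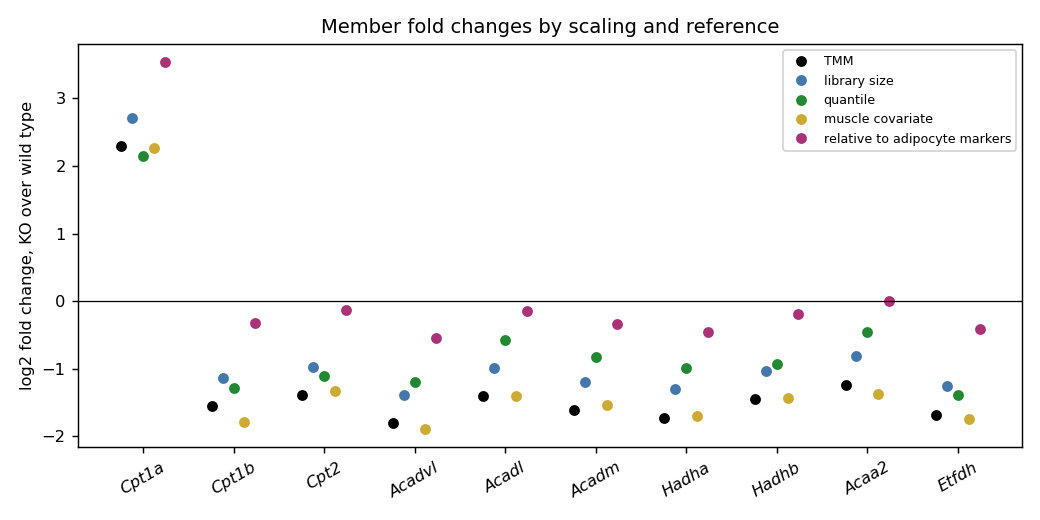
Log2 fold change of each of the 10 genes with TMM scaling, library size alone, quantile normalization, the muscle level as a covariate, and relative to the mean of 6 adipocyte markers. Cpt1a lies above 0 in each, between 2.15 and 3.54, and the remaining genes lie between -1.89 and -0.45 under the first 4 settings and between -0.55 and 0.0028 relative to adipocyte markers.

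Among 12852 tested genes outside the lists, those whose levels over the 6 mice were nearest to the mean pattern of the 10 genes were Coq9, Mrpl42, Atp5d, Minos1 and C030006K11Rik, with a root mean square difference of 0.036 to 0.042 in log2 CPM. Their log2 fold changes lay between -1.21 and -1.17. Each thus fell less than any of the 9 lower genes, which lay between -1.81 (Acadvl) and -1.24 (Acaa2). The mean pattern includes Cpt1a, with a log2 fold change of 2.29, and so differs from that of the 9 lower genes. Nearness to the mean of the 9 lower genes alone was not tested. Of the 10 genes themselves, Acaa2 was nearest to the mean of all 10, at 0.14, and Cpt1a farthest, at 2.44.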

How the data were processed

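QuantSeq 3′ mRNA libraries of BAT from 6 mice were analysed. Per the labels and the study's methods, single-end reads were aligned to mm10 by Bowtie2 and assigned to genes by bedtools, multiple alignments included, and the authors deposited the resulting read counts of each mouse without normalization. Tool versions, the annotation and the use of strand in counting are not given in the sources used here. A floor of 3 counts was between 0.176 and 0.397 CPM, for counting error only. Counts of mice of a genotype differed beyond counting error, with a chi-square of 11.9 to 36.9 per degree of freedom, and each mouse was 1 replicate.

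Counts were tested in R 4.3.3 with edgeR 4.0.16 (TMM, default filter at a minimum count of 10 and total of 15, quasi-likelihood test, Benjamini-Hochberg threshold of 0.05), which kept 12995 of 23282 rows. DESeq2 1.42.0 and limma 3.58.1 served as alternatives. The steps were tested on simulated data with few changed genes, as many raised as lowered, which did not test the scaling between genotypes. Log2 CPM used a prior count of 2. Standard errors were derived from the fold change and its F statistic. Log2 ratios of counts had 0.5 added to each count and went into exact two-sided permutation tests over mice. Positions came from GENCODE vM21, promoters from RefSeq, and 3′ ends were compared with BLAST 2.17.0.

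The members, gene lists and tests were chosen with earlier results of these data known. Named genes were all members, genes of the pathway and regulator lists, the lowest and highest gene of other lists, and the 5 nearest in pattern. One gene that this rule names is not reported here. Any cell type marker named beyond these was chosen after its values were seen.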

Additional observations from a re-analysis of the deposited data

How the results depend on the processing

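In each of the 15 refits across all genes, 9 of the 10 genes were lower and Cpt1a was higher past the threshold. All 8 ratios kept their direction with 2 added to each count, on leaving out single mice and with the replicate block, the alternatives run for them. The median log2 fold change of the 10 genes, -1.50, was -1.08 with library size alone, -0.96 under quantile normalization, -0.25 relative to adipocyte markers and from -1.60 to -1.42 on leaving out single mice. The change with library size alone is close to the shift of all genes; for the others the cause was not tested. The number of genes past the threshold, 5978, fell to 3569 with the muscle level as a covariate (cause not tested), to 3048 by construction if a change of at least 2-fold was required, and to between 4842 and 5868 on leaving out single mice. Leaving out the rows ChkbCpt1b and Rn45s, an alternative chosen after seeing the data, gave 5979.

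Replicate numbers are shared by both genotypes, but same-numbered mice did not deviate together (correlations between -0.11 and 0.069), and not every mouse correlated best with its own number. With the replicate number as a block, 5599 genes passed the threshold (20.9% of those tested lower, 22.2% higher), 9 of the 10 genes were lower, and the median of the 10 genes was -1.52. Exact tests of 3 mice against 3 cannot go below 0.1, so that the number of mice limits the ratios, and the depth of 48 to 79 counts limits the wild-type level of Cpt1a.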
